A study of Mus musculus with 9 samples.

Results

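Guanylate-binding proteins (GBPs) and immunity-related GTPases (IRGs) are large GTP-cleaving proteins that interferons induce in macrophages. The genes examined were Gbp2, Gbp3, Gbp5, Gbp7, Gbp8 and Gbp9, which encode GBPs, and Igtp, Irgm1, Irgm2 and Iigp1, which encode IRGs. They were picked by family name, with earlier results of these data known, and account for 10 of the 23282 gene rows of the series. The cells were RAW264.7, a virus-transformed mouse macrophage line of BALB/c origin that forms osteoclast-like cells under RANKL, the cytokine for osteoclast formation. Each group had 3 libraries. The negative control received RANKL alone at 50 ng/mL, and the surface protein-treated cells received RANKL at 50 ng/mL together with proteins stripped from the surface of Propionibacterium freudenreichii MJ2, a dairy bacterium, at 10 µg/mL. The heat-killed MJ2 group received killed whole bacteria at 10000000 cells/mL, but whether these cells were also given RANKL is not stated for each library. Treatment lasted 4 days and cells were at passage 30 in all groups. All libraries come from 1 cell line, nothing states that replicates were separate cultures, and the p-values then measure only the spread between these samples, which may be technical.

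GBPs and IRGs act in cell-autonomous immunity. They gather on membranes that surround bacteria or parasites inside a cell, and GBPs also help expose bacterial lipopolysaccharide to the inflammasome protease caspase-11, the product of Casp4. Within the IRGs, the products of Irgm1, Irgm2 and Igtp (also called Irgm3) stay on the membranes of the cell's own organelles and restrain effector IRGs such as the product of Iigp1. Many of these genes carry an interferon-stimulated response element (ISRE), bound by STAT and IRF factors, or a gamma-activated site (GAS) close to their start.

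The promoter stretches of the 5 tested genes that could be matched to RefSeq promoters (build GRCm38.p6) are shown because they hold these letters just before the start. A promoter was found for 7 of the 10 genes. Capitals mark matches to the ISRE core GAAANNGAAA or the GAS core TTCNNNGAA, searched on both strands, and matches may overlap. Each stretch is 110 bases long and is written 5′ to 3′ on the strand of its gene. The positions are chr3:142530226-142530335 (plus strand) for Gbp7, chr3:142559934-142560043 (plus) for Gbp3, chr11:48871421-48871530 (minus) for Irgm1, chr11:58199446-58199555 (plus) for Igtp and chr11:58214867-58214976 (plus) for Irgm2.
Gbp7: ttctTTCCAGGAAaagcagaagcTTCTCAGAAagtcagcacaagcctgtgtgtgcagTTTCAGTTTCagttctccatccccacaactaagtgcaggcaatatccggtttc
Gbp3: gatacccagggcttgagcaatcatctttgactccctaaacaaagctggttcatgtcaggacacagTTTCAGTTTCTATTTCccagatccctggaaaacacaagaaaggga
Irgm1: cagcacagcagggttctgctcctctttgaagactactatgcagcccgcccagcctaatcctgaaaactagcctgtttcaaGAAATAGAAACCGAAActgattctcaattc
Igtp: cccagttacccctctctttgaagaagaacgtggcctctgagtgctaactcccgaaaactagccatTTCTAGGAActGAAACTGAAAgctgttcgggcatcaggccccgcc
Irgm2: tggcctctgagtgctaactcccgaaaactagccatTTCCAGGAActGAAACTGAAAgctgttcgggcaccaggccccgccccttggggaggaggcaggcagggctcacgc

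The ISRE core was present in a promoter of each of the 7 genes matched (Gbp2, Gbp3, Gbp5, Gbp7, Irgm1, Igtp and Irgm2), in windows of 250 bases before to 50 bases after the start. Of their 8 promoters 7 held it, and a second promoter of Gbp3 did not. It was present in 3.44% of all 32851 promoters of that length. The GAS core was present for 4 of the 7 (Gbp5, Gbp7, Igtp and Irgm2) and in 8.30% of all promoters. The core of the kappa B site, bound by NF-κB (GGGANNTTCC), was present for Gbp2 and Gbp5 and in 1.47% of all promoters. In Irgm1 the 2 ISRE matches overlapped, at 30 and 24 bases before the start, and in Gbp3 they did so at 45 and 39 bases before it. The stretches of Igtp and Irgm2 were alike: laid over each other without gaps, 78 of 80 bases were identical, with a GAS match followed after 2 bases by an ISRE match in both. These are letter matches in a reference sequence, not measured binding sites.

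The libraries were made from the 3′ end of each mRNA. The values are given as adjusted reads, obtained by raising 2 to the deposited log2 value and subtracting 1, and they summed to between 5930926 and 6503682 per library. At this depth a count of 0 allows up to 3 reads of a gene, a floor for counting error only. RANKL alone replicate 2, heat-killed MJ2 replicate 1 and surface protein replicate 3 list no 0 outside the 7779 rows that are at 0 in every library and list fractions below 0.5 of 1 read instead, and these fractions were read as no read. Of the macrophage markers, 6 of 7 reached 10 adjusted reads in every library and Mrc1 did not, and their sum ran from 15388 to 18731. Single macrophage markers moved with the groups. Itgam had 212.5 to 258.9 reads with RANKL alone, 997.8 to 1347 with heat-killed MJ2 and 1743 to 2152 with surface proteins, Lyz2 and Adgre1 were also higher in both treated groups, and Csf1r went from 8809 to 9877 with RANKL alone to 5552 to 6575 and 2657 to 4161. Of the osteoclast markers, 7 of 8 did so, and Calcr was at or near 0. Fibroblast markers summed to at most 41.7 reads and epithelial ones to at most 6.29. Markers of T cells and NK cells, the usual sources of interferon-γ, and of B cells were at or under 3 reads in all libraries, and Ifng and Ifnb1 had no read in any library. The 8 osteoclast markers summed to between 17073 and 28379 adjusted reads with RANKL alone, 12052 and 14038 with heat-killed MJ2, and 4958 and 7349 with surface proteins. The osteoclast and macrophage markers thus moved with the groups in which the GTPase genes were compared, and their part in the results was not tested. In bulk RNA, fewer cells of a type and less RNA per cell cannot be told apart.

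The 10 genes together took few reads with RANKL alone and more in both treated groups. They summed to between 14.7 and 15.7 RPM (adjusted reads scaled to 1000000 per library) with RANKL alone, between 73.5 and 111.4 with heat-killed MJ2, and between 53.0 and 101.5 with surface proteins. Both treated groups lay above the control without overlap, and they overlapped each other. With RANKL alone the 4 IRGs made up most of the sum, 9.16 to 11.8 RPM against 3.92 to 5.49 for the 6 GBPs. The GBPs reached 29.2 to 60.1 RPM with heat-killed MJ2 and 22.1 to 48.9 with surface proteins. The highest library of both treated groups was replicate 2.

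**Figure D1:**
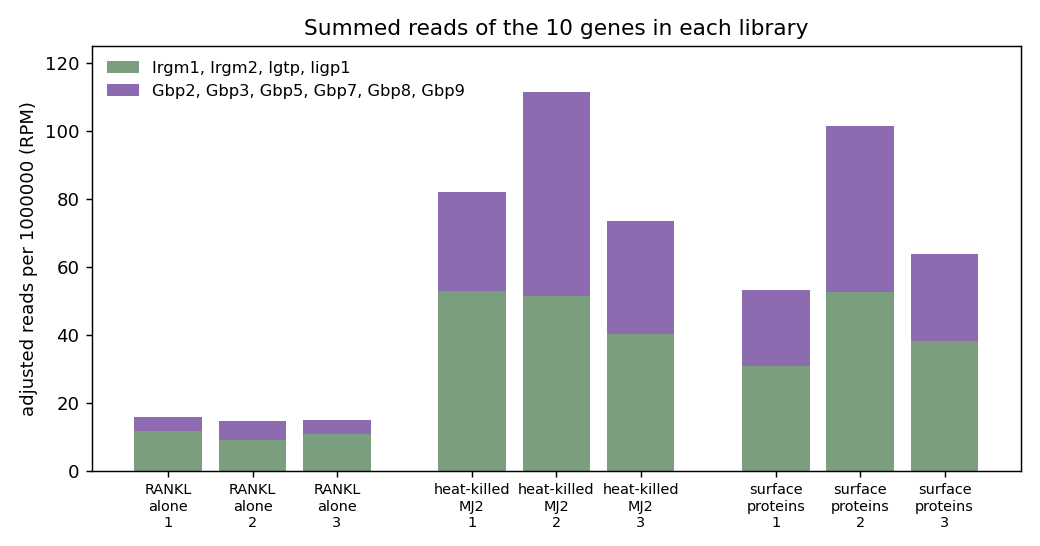
RPM (vertical axis) summed over the 4 immunity-related GTPase genes (lower part of each bar) and the 6 guanylate-binding protein genes (upper part) in each of the 9 libraries (horizontal axis). Every treated library stands above the 3 libraries with RANKL alone, which sit between 14.7 and 15.7.

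Group differences were tested with limma on the deposited log2 values. A gene entered a test if 3 or more of the 6 libraries compared held 10 or more adjusted reads of it, and it passed if its Benjamini-Hochberg adjusted p was below 0.05 and its change reached 2-fold. Only Irgm1, Irgm2, Igtp and Gbp7 reached 10 reads in all 9 libraries. Gbp8 and Gbp3 entered tests only through the group in which they were high. Gbp2, Gbp5, Gbp9 and Iigp1 stayed under the filter in every comparison. For 1 gene taken alone, the smallest two-sided p of an exact permutation test with 3 libraries against 3 is p = 0.1.

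**Figure D2:**
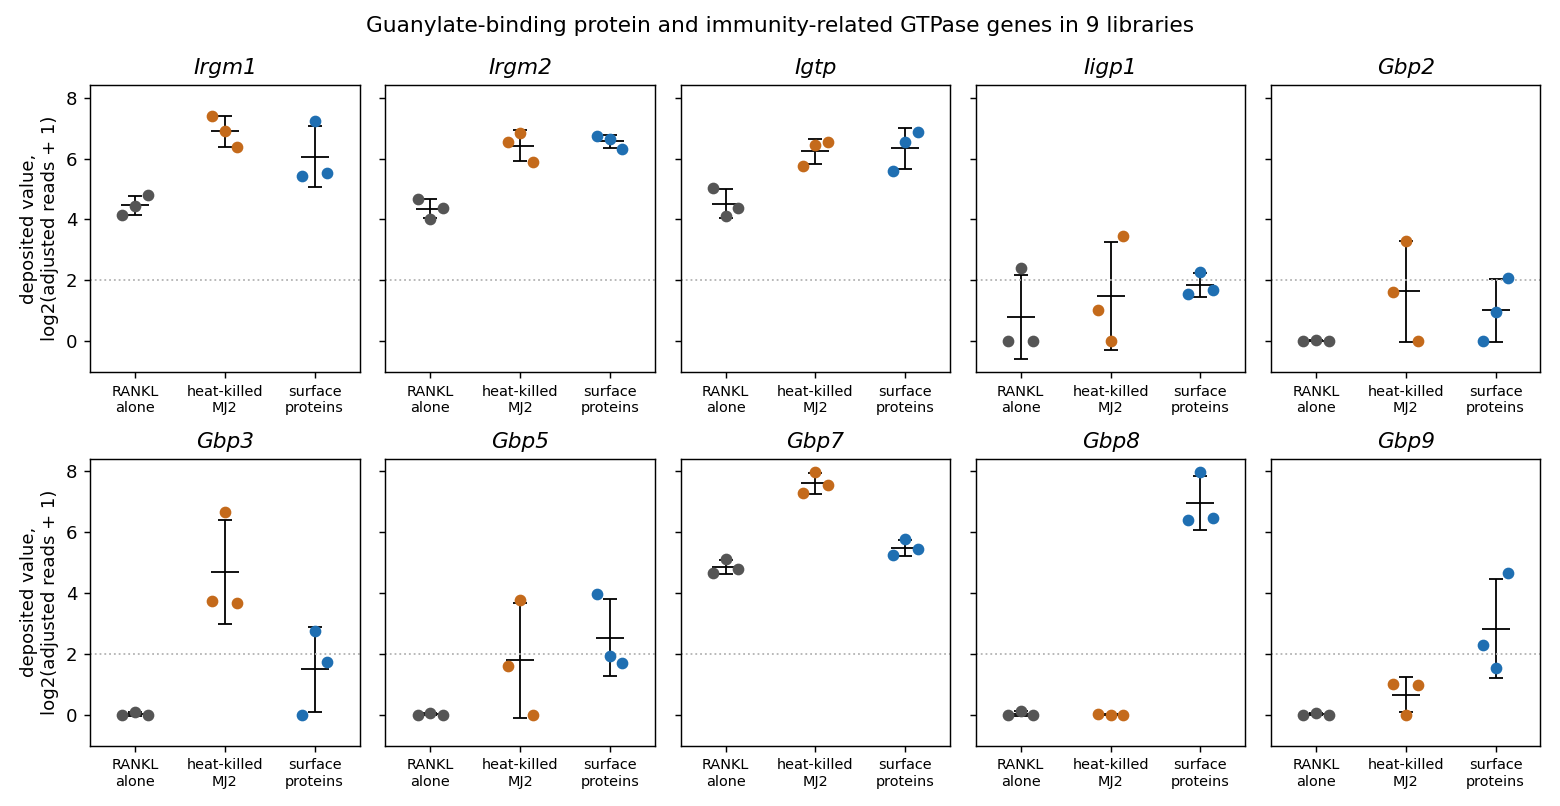
Deposited values, log2(adjusted reads + 1), of the 10 genes (vertical axis) in the 3 groups (horizontal axis), 1 point for each library, with the mean as a long tick and the SD (n = 3) as error bars. The dotted line marks 3 adjusted reads. Irgm1, Irgm2, Igtp and Gbp7 lie well above it in all libraries, Gbp8 does so with surface proteins alone, and Gbp3 lies above it in all 3 libraries with heat-killed MJ2.

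The 3 regulatory IRGs, Irgm1, Irgm2 and Igtp, were read in every library, as was Gbp7, and each of the 3 rose with heat-killed MJ2. Irgm2 and Igtp also rose with surface proteins. Irgm2 (GRCm38, chromosome 11, 58199618 to 58222782, plus strand) had 24.3, 15.2 and 19.7 adjusted reads with RANKL alone, 93.1, 114.2 and 57.9 with heat-killed MJ2 and 104.7, 98.9 and 79.0 with surface proteins. Both treated groups lay above the control without overlap, and they overlapped each other. The log2 fold change of Irgm2 against RANKL alone was 2.21 with surface proteins (standard error 0.21, adjusted p = 0.0015) and 2.08 with heat-killed MJ2 (standard error 0.30, adjusted p = 0.0171), both from limma. The call with surface proteins was kept in all 17 alternative settings, with adjusted p up to 0.00946, while the call with heat-killed MJ2 was lost without RANKL alone replicate 2, RANKL alone replicate 3 or heat-killed MJ2 replicate 1 (adjusted p up to 0.0722 in limma), without a filter on low values (0.0513) and under 1 further setting given with the alternatives.

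Igtp (chromosome 11, 58199556 to 58207591, plus strand), whose product sits on the endoplasmic reticulum and on lipid droplets, had 31.8, 16.3 and 19.7 adjusted reads with RANKL alone. It had 53.2, 85.2 and 91.3 with heat-killed MJ2 and 47.0, 91.2 and 117.2 with surface proteins. Again both treated groups were above the control in every library and overlapped each other. The log2 fold changes were 1.82 with surface proteins (standard error 0.40, adjusted p = 0.0187) and 1.73 with heat-killed MJ2 (standard error 0.31, adjusted p = 0.0332), from limma. These calls depended on single libraries: the first was lost without RANKL alone replicate 2 or 3 or surface protein replicate 2 or 3 (adjusted p up to 0.0659), and the second without any of the libraries except RANKL alone replicate 1 (adjusted p up to 0.108) and also without a filter on low values (0.0772). Both calls were also lost under a further setting given with the alternatives. The annotated spans of Igtp and Irgm2 overlap on the same strand. How reads in the overlap were assigned is not given in the sources used here. The last 500 bases of their transcripts, where 3′ libraries place most reads, shared no stretch of 75 bases, the read length.

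Irgm1 (chromosome 11, 48861968 to 48871683, minus strand), which is known for its role in the turnover of mitochondria and in resistance to mycobacteria, had 16.8, 20.6 and 26.7 adjusted reads with RANKL alone. It had 165.7, 120.0 and 82.4 with heat-killed MJ2, all above the control, and 42.1, 147.9 and 45.1 with surface proteins, also all above the control. Replicate 2 stood apart from the other 2 libraries with surface proteins, at 1.16 above its group mean on the log2 scale. With heat-killed MJ2 it rose by 2.44 on the log2 scale (standard error 0.30, adjusted p = 0.0107 in limma). That call was lost under a setting given with the alternatives (adjusted p up to 0.061). With surface proteins the change was 1.60 (standard error 0.50, 95% interval 0.39 to 2.81) and missed the threshold (adjusted p = 0.0563). Without surface protein replicate 2 it fell to 1.02 and passed (adjusted p = 0.0417), and it also passed under other settings, given with the alternatives.

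Iigp1, the effector IRG among the 10, was near the floor throughout. It lies on chromosome 18 and had 0, 4.27 and 0 adjusted reads with RANKL alone, 1.03, 0 and 9.87 with heat-killed MJ2, and 1.95, 3.85 and 2.21 with surface proteins. The 3 groups overlapped, and no difference was detectable at this depth.

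Among the GBPs on chromosome 3, Gbp7 was the only one with reads in every library, and it separated the treatments: it was highest with heat-killed MJ2. Gbp7 (142530342 to 142550149, plus strand), whose product takes part in host defence against intracellular bacteria, had 24.3, 33.5 and 26.7 adjusted reads with RANKL alone. It had 155.5, 252.7 and 186.4 with heat-killed MJ2 and 37.2, 53.7 and 42.9 with surface proteins, so that none of the 3 groups overlapped. With heat-killed MJ2 it rose by 2.76 on the log2 scale (standard error 0.23, adjusted p = 0.00237), and with surface proteins the value was 0.64 (standard error 0.20, 95% interval 0.15 to 1.13, adjusted p = 0.057), which did not pass. Between the treatments Gbp7 was lower with surface proteins (log2 fold change -2.11 with a standard error of 0.23, limma adjusted p = 0.007). The first and the last of these calls were kept in all 17 alternatives, with the last one ranging from -2.27 to -1.93.

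Gbp3 (142560026 to 142573209, plus strand) had no whole read in any library with RANKL alone, where the highest listed value was 0.0785. It had 12.3, 100.1 and 11.8 adjusted reads with heat-killed MJ2 and 0, 5.71 and 2.32 with surface proteins. With heat-killed MJ2 it was at least 13.8-fold higher than the floor of 3 reads per library set for the control, and at least 4.01-fold higher without replicate 2, the library with 100.1 reads. The log2 fold change fitted with limma was 4.65 with a standard error of 0.79 (adjusted p = 0.0282), which depends on the constant added before the log. That call was lost when any library other than heat-killed MJ2 replicate 2 was left out (adjusted p up to 0.0824), without a filter on low values (0.0759) and with a constant of 5 (0.0685). A further setting given with the alternatives also lost it. Without heat-killed MJ2 replicate 2 the log2 fold change was 3.67 (adjusted p = 0.000819). All 3 libraries with surface proteins lay below all 3 with heat-killed MJ2, a difference of -3.20 on the log2 scale (standard error 1.02) that did not pass (limma adjusted p = 0.0776).

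Gbp5 (142493978 to 142522344, plus strand), which promotes inflammasome assembly, and Gbp2 (142620602 to 142638008, plus strand), which coats pathogen vacuoles, had at most 14.8 and 8.82 adjusted reads in any library. Gbp5 had no whole read with RANKL alone, 2.06, 12.7 and 0 adjusted reads with heat-killed MJ2, and 14.8, 2.87 and 2.24 with surface proteins. Gbp2 had no whole read with RANKL alone, 2.04, 8.82 and 0 with heat-killed MJ2, and 0, 0.947 and 3.24 with surface proteins. Without the highest library of a group, the remaining mean of either gene was under the floor of 3 reads, at 2.55 for Gbp5 with surface proteins and 1.02 for Gbp2 with heat-killed MJ2. No fold change is therefore given for them. The last 500 bases of the Gbp5 transcript share 0.469% of their 75-base windows with a transcript of Grem1, and those of the other 9 genes share none with another gene.

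On chromosome 5, Gbp8 (105014150 to 105139540, minus strand), a GBP whose function is little studied, was read in the surface protein group alone, with 84.2, 253.1 and 87.6 adjusted reads. The other 6 libraries held no whole read of it, the highest listed value being 0.0981. Against the floor of 3 reads per library, which applies to both other groups, the surface protein group was at least 47.2-fold higher. Without replicate 2, the highest library, this bound was 28.6-fold. The difference fitted in limma, which depends on the constant added before the log, was 6.91 against RANKL alone (standard error 0.43, adjusted p = 0.000381) and 6.94 against heat-killed MJ2 (standard error 0.43, adjusted p = 0.00325). Both calls were kept in the 16 alternatives that tested Gbp8. However, Gbp8 passed the filter on low values only through the surface protein group, the group in which it was high. The alternative that applied this filter to every library compared left Gbp8 untested. The calls being kept is therefore no check on this way of entering the tests.

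Gbp9 (105077630 to 105139539, minus strand) lies within the annotated span of Gbp8 on the same strand. It had no whole read with RANKL alone, 1.04, 0 and 0.968 adjusted reads with heat-killed MJ2, and 3.91, 1.90 and 24.5 with surface proteins. The surface protein libraries lay above the other 6, but 1 of them carried most of the reads, and without replicate 3 the group mean was 2.91, under the floor. Surface protein replicate 2 was the highest library of Gbp8 and the lowest of the 3 for Gbp9. How reads in the shared span were assigned is not given in the sources used here. Gbp10 and Gbp6, named after their values were seen, had at most 12.6 and 6.80 adjusted reads in any library and no read with RANKL alone.

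Over the comparison of surface proteins with RANKL alone, 5 of the 10 genes were tested and 3 passed as higher (Gbp8, Igtp and Irgm2). Among the 10874 genes tested, 10.2% passed as higher and 7.32% as lower. None of the 5 had a log2 fold change below 0, and Gbp7 and Irgm1 did not pass. All 3 surface protein libraries lay above all 3 control libraries for the 5 genes tested. This pattern, without overlap, was found for 24.7% of all genes tested and its opposite for 23.7%. Among the genes under the filter it also held for Gbp5 and Gbp9, whose lowest surface protein values (2.24 and 1.90) were under the floor. Gbp8 entered this test only through the group in which it was high. Of the 4 that reached 10 reads in all 9 libraries, 2 passed (Igtp and Irgm2), and their median log2 fold change was 1.71 beside -0.01 for all genes tested.

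Over the comparison of heat-killed MJ2 with RANKL alone, 5 of the 10 genes were tested and these 5 passed as higher (Gbp3, Gbp7, Igtp, Irgm1 and Irgm2), where 3.37% of 10814 genes passed as higher and 0.897% as lower. The same 5 lay above the control in every library, against 15.4% of all genes tested, and 14.7% lay below. Gbp3 entered only through its high group, and the median log2 fold change of the other 4, all of which passed, was 2.26 beside -0.00 for all genes. The number of the 10 that passed depended on the libraries: leaving out 1 library at a time gave 2 to 4, and dropping the filter on low values gave 2. Over all alternatives the number ran from 1 to 5, and only Gbp7 passed under each of them.

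Between the 2 treatments, 6 of the 10 genes were tested, and 1 passed as higher with surface proteins (Gbp8) and 1 as lower (Gbp7). Of all 10916 genes, 5.08% passed as higher and 4.97% as lower. Of those tested, Gbp8 lay above heat-killed MJ2 in all libraries, as did 22.2% of all genes tested, and Gbp3 and Gbp7 lay below, as did 20.1%. The median of the 4 genes read in all libraries was -0.37 and that of all genes was 0.03. None of the 3 regulatory IRGs passed in this comparison. The difference was 0.14 for Irgm2 (95% interval -0.53 to 0.80), 0.09 for Igtp (95% interval -0.83 to 1.02) and -0.84 for Irgm1 (95% interval -2.12 to 0.45) on the log2 scale. Differences up to the bounds of these intervals are not excluded, and the sign for Irgm2 and Igtp turned when single libraries were left out. Both treatments share the control libraries, so their differences from RANKL alone are not independent of each other.

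**Figure D3:**
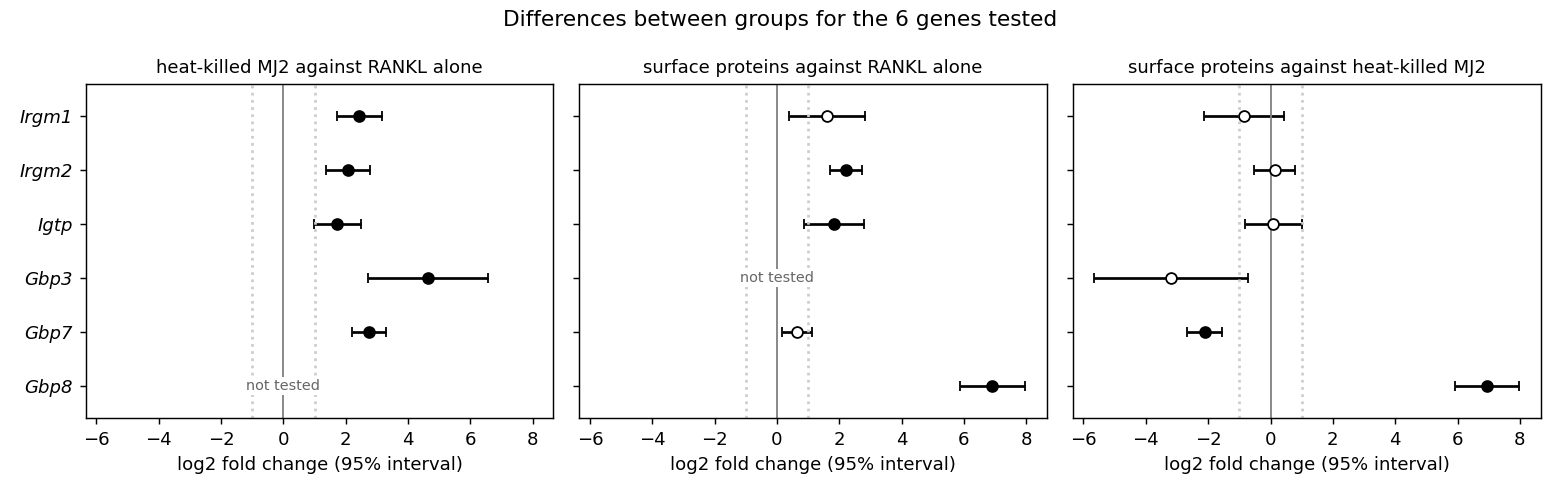
Log2 fold changes (horizontal axis) of the 6 genes tested in the 3 comparisons, with 95% intervals from limma. Filled points passed the test, open points did not, and dotted lines mark a 2-fold change. Gbp7 lies at 2.76 with heat-killed MJ2 and 0.64 with surface proteins, and Gbp8 lies at 6.91 and 6.94 in the comparisons in which it was tested.

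Within the treated groups, replicate 2 was above its group mean for each of Irgm1, Irgm2, Igtp and Gbp7, by 0.03 to 0.42 on the log2 scale with heat-killed MJ2 and by 0.08 to 1.16 with surface proteins. It was also the highest library of Gbp3 with heat-killed MJ2 and of Gbp8 with surface proteins. The other libraries differed between genes. In the surface protein group, replicate 2 was above its group mean for Irgm1 by 1.16 on the log2 scale but for Irgm2 by 0.08, and replicate 3 was above it for Igtp by 0.55 and below it for Irgm1 (deviation -0.53). Over the 9 libraries, Pearson's r between pairs of the 6 genes that passed the filter in any comparison ran from -0.28 to 0.94 with a median of 0.64 (15 pairs). These values include the differences between groups and describe the same 9 libraries. The 5 genes outside the group whose pattern was most like the mean standardized pattern of the 6 were Isg15 (r = 0.977), Slc15a3 (r = 0.975), Upp1 (r = 0.974), Ftl1 (r = 0.974) and Adar (r = 0.974), among 11187 genes and over 9 libraries. These 5 were picked for the highest r, so r is no test here. The 6 include Gbp3 and Gbp8, which entered only through their high groups. Isg15 encodes an interferon-induced ubiquitin-like protein. It had 28.2 to 30.6 adjusted reads with RANKL alone, 401.3 to 1057 with heat-killed MJ2 and 389.5 to 480.7 with surface proteins.

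Most other GTPases of the same families had few reads. Of 25 symbols listed, 19 had a row, and 15 of these stayed under the filter in all comparisons, with no value above 17.6 adjusted reads, while 2 had no read in any library. Ifi47, an interferon-inducible IRG, had 0.972 to 7.40 adjusted reads with RANKL alone, 50.1 to 121.0 with heat-killed MJ2 and 80.1 to 105.7 with surface proteins. Its log2 fold changes were 4.44 with surface proteins (standard error 0.52, adjusted p = 0.00261) and 4.24 with heat-killed MJ2 (standard error 0.59, adjusted p = 0.0159), from limma. Gvin1, a very large interferon-inducible GTPase, had 0 to 6.59 adjusted reads with RANKL alone, 87.0, 180 and 78.5 with heat-killed MJ2 and 266.4 to 406.3 with surface proteins. It rose in both (log2 fold changes 6.49 and 4.93 with surface proteins and heat-killed MJ2) and was higher with surface proteins than with heat-killed MJ2 by 1.56 (adjusted p = 0.0316 in limma). Gm4070 gave similar calls, but it shares every 75-base window of its last 500 bases with Gvin1, so reads of the pair cannot be told apart. Of 4 genes tested, 3 passed as higher with surface proteins and 3 with heat-killed MJ2, where 10.2% and 3.37% of all genes did. Between the treatments 2 passed as higher, where 5.08% of all genes did. Ifi47, Gvin1 and Gm4070 entered the tests through the groups in which they were high. Their 3 calls with heat-killed MJ2 were all lost without heat-killed MJ2 replicate 2 or 3, and 1 was left without heat-killed MJ2 replicate 1 or RANKL alone replicate 3. Both calls between the treatments were lost when any library other than heat-killed MJ2 replicate 2 was left out. Irgq, a divergent IRG, passed in no comparison (log2 fold change 0.62 with surface proteins, adjusted p = 0.169 in limma).

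Genes of interferon signalling and its regulation rose in part, and whether they control the 10 genes in these cells was not tested. Of 16 genes tested from a list of interferon receptors and STAT and IRF regulators, 8 rose with surface proteins and 5 with heat-killed MJ2, and none fell. Over all genes tested, 10.2% passed as higher and 7.32% as lower with surface proteins, and 3.37% and 0.897% with heat-killed MJ2. Over the alternatives the counts ran from 7 to 8 and from 0 to 7. Irf7, which drives type I interferon expression, rose by a log2 fold change of 4.19 with surface proteins and 3.62 with heat-killed MJ2. Irf8, a macrophage lineage factor that also binds GBP promoters, rose by 2.83 with surface proteins (adjusted p = 0.00756) and was 1.83 with heat-killed MJ2 (adjusted p = 0.0914, not passed). The kinase gene Jak2 rose 4.01-fold with surface proteins and was higher there than with heat-killed MJ2 by 1.83 (adjusted p = 0.00995). Socs1, which restrains JAK signalling, rose with surface proteins (2.18) and with heat-killed MJ2 (2.75), but it had at most 7.65 reads with RANKL alone and entered both tests through the treated groups. With 10 reads required in all 6 libraries compared, 7 regulators passed with surface proteins and 5 with heat-killed MJ2. Irf1, an activator of GBP genes, passed in no comparison, with 0.65 for surface proteins (adjusted p = 0.0799) and 0.59 for heat-killed MJ2 (adjusted p = 0.134).

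Genes of the inflammasome pathway, in which GBPs act, passed as higher for 5 of 9 tested with surface proteins, where 10.2% of all genes did, and for 3 of 9 with heat-killed MJ2, where 3.37% did. Over the alternatives these counts ran from 3 to 6 and from 0 to 4, the 0 without heat-killed MJ2 replicate 1 or 3. Nlrc4 and Il1b, with at most 9.79 and 1.79 reads with RANKL alone, entered through the groups in which they were high, and with 10 reads required in all 6 libraries the counts were 4 and 2. Casp4 rose by a log2 fold change of 2.66 with surface proteins (adjusted p = 0.00188) and 1.13 with heat-killed MJ2 (adjusted p = 0.0249), and it was higher with surface proteins than with heat-killed MJ2 by 1.53 (adjusted p = 0.0173). Casp1, the protease that cleaves interleukin-1β, rose 5.64-fold with surface proteins, and with heat-killed MJ2 the log2 fold change of 1.22 did not pass (adjusted p = 0.101). Nlrc4, an inflammasome gene, rose by 2.78 and Ninj1, which ruptures the membrane of dying cells, by 1.06 with surface proteins. Gsdmd, which encodes the pore protein that caspase-11 cleaves, was lower with surface proteins by a log2 fold change of -0.72 (adjusted p = 0.0394), under the limit of 2-fold. Il1b, named after its values were seen, had 51.1, 13.5 and 84.6 with heat-killed MJ2 and 3.88, 15.3 and 3.42 with surface proteins. It passed as higher with heat-killed MJ2 (adjusted p = 0.0206 in limma), at least 16.6-fold above the floor of 3 reads (at least 10.8-fold without replicate 3), and its difference of -2.51 between the treatments did not pass (adjusted p = 0.0741).

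Genes of autophagy conjugation and ubiquitin adaptors, to which Irgm proteins are linked, showed 3 of 17 passing as higher with surface proteins, where 10.2% of all genes did. Only 1 passed under quantile normalization, with equal totals or without RANKL alone replicate 3, and 8 passed with no limit on the fold change. Sqstm1, the adaptor p62, rose by a log2 fold change of 2.59 (adjusted p = 0.000943), Atg7 by 1.05 and Atg12 by 1.02. With heat-killed MJ2 no gene of this list passed in limma, where 3.37% of all genes passed as higher and 0.897% as lower. There 1 gene had an unadjusted p under 0.05, and Sqstm1 was at 1.08 (adjusted p = 0.0898). Between the treatments 4 of 17 passed as higher with surface proteins, where 5.08% of all genes did, and over the alternatives 1 to 6 did. They included Sqstm1 (1.52, adjusted p = 0.0222) and Calcoco1, an autophagy receptor (1.38, adjusted p = 0.0274). Of 8 genes for prenylation, which anchors several GBPs in membranes, Pggt1b passed with surface proteins (1.23, adjusted p = 0.0131), where 10.2% of all genes did. Over the alternatives 0 to 2 genes of this list passed with surface proteins. Of 10 dynamin and atlastin genes tested, Mx2, an interferon-induced GTPase of another family, passed there (2.37, adjusted p = 0.0138), where 10.2% of all genes did, but with 2.72, 10.9 and 7.89 reads in the control it entered through the treated group, and with heat-killed MJ2 it was at 2.86 (adjusted p = 0.0588, not passed). Neither of these 2 lists had a gene that passed with heat-killed MJ2. Of all genes, 3.37% passed there as higher and 0.897% as lower. In the 2 lists, 0 and 2 genes had an unadjusted p under 0.05 in limma. Beside -0.01 for all genes tested, the median log2 fold changes with surface proteins were 1.07 over the regulators, 1.03 over the inflammasome genes, 0.58 over the autophagy genes, 0.11 over the prenylation genes and 0.03 over the dynamin and atlastin genes. With heat-killed MJ2 they were 0.41, 0.85, 0.02, 0.04 and 0.21 in the same order, beside -0.00 for all genes.

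**Figure D4:**
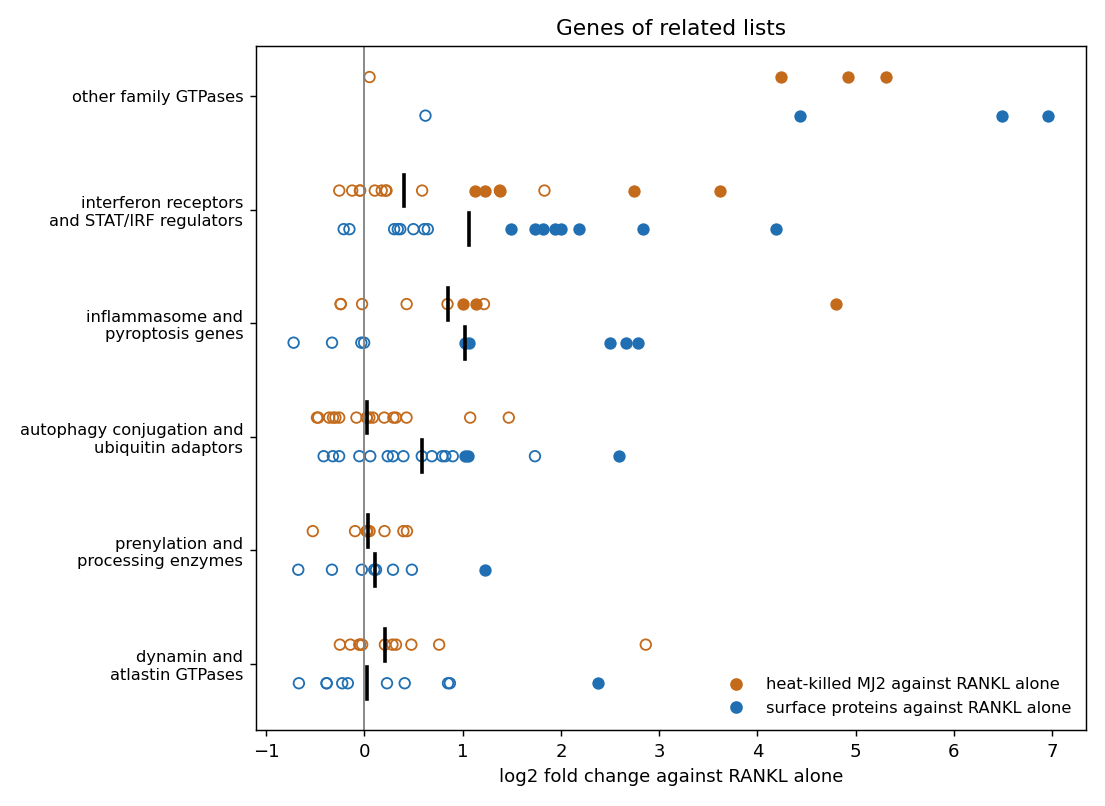
Log2 fold changes against RANKL alone (horizontal axis) of every tested gene of 6 lists (vertical axis), with heat-killed MJ2 above and surface proteins underneath in each pair of rows. Filled points passed the test, open points did not, and black bars are medians, which with surface proteins run from 1.07 for the regulators to 0.03 for dynamin and atlastin genes and with heat-killed MJ2 from 0.85 for the inflammasome genes to 0.02 for the autophagy genes. No median is drawn for the other family GTPases, since 3 of the 4 tested were under 10 reads in most libraries with RANKL alone.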

How the data were processed

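For each of the 9 libraries the authors deposited 1 log2 value per gene row. Per the methods of the study, libraries were made with a 3′ mRNA kit, sequenced as single-end reads of 75 bases and quantile normalized. The submitters' processing notes name Bowtie2, bedtools and mm10, and versions are not given in the sources used here. Quantile normalization gives all libraries the same sorted values, but this held for 0 of 36 pairs of libraries, so the scaling of the deposited log2 values is not known. After conversion to adjusted reads and division by the worth of 1 read in each library (0.986 to 1.06), 100% of values between 0.5 and 3.5 lay within 0.25 of a whole read. Replicates differed beyond sampling noise (chi-square per degree of freedom 6.90 to 18.5 within groups). Each library was counted as 1 sample, but this spread cannot tell separate cultures from separate libraries of 1 culture. The ribosomal RNA row Rn45s held 8.91% to 12.4% of a library.

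The comparisons were fitted with limma 3.58.1 in R 4.3.3 (lmFit, eBayes), each on its own 6 libraries, after a test on simulated data. Fold changes are on the log2(adjusted reads + 1) scale, which understates those of low genes. P-values were adjusted over all genes tested by the Benjamini-Hochberg method, and adjusted p-values are from this limma fit throughout. Python 3.11.15, pandas 2.3.3 and scipy 1.17.1 were used for the rest, with GENCODE M21 on GRCm38 for positions.

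The genes and lists were chosen with earlier results of these data known. All 10 genes are named. From each related list up to 4 genes that passed in at least 1 comparison are named, by the largest absolute log2 fold change with surface proteins, and Irf1, Casp4, Gsdmd and Sqstm1 in any case. For 1 further gene of this rule the result is not reported here. Irgq was added after its values were seen. Alternatives were quantile normalization, equal totals, other filters, constants and thresholds, a fit over all 9 libraries, a robust fit, a replicate block and leaving out each library.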

Additional observations from a re-analysis of the deposited data

How the results depend on the processing

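Over 17 alternatives, the calls of Gbp7 with heat-killed MJ2 and between the treatments and of Irgm2 with surface proteins were kept. Both calls of Gbp8 were kept in the 16 alternatives that tested it, but it entered only through its high group. Of 268 values of the genes tested, 228 stayed on their side of the threshold with the same sign, 26 lost their call, 10 gained one and 4 changed sign. The sign changes came from leaving out 1 library in the comparison of the treatments: the log2 fold change of Igtp ran from -0.18 to 0.47 (-0.15 without heat-killed MJ2 replicate 1, -0.0045 without surface protein replicate 2, -0.18 without surface protein replicate 3), and that of Irgm2 from -0.14 (without heat-killed MJ2 replicate 3) to 0.35.

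Of the 10 genes, 5 passed with heat-killed MJ2, against 2 without a filter on low values and 2 to 4 with each library left out. Of the 2 that passed between the treatments, 1 remained testable and passed with at least 10 adjusted reads in all 6 libraries, since Gbp8 was then not tested. With surface proteins Irgm1 passed at adjusted p = 0.0345 with that filter, 0.0485 with a constant of 5, 0.0331 in the fit over all 9 libraries and 0.017 in the robust fit. Gbp3 passed as lower than with heat-killed MJ2 in the fit over 9 libraries (adjusted p = 0.0379) and in the robust fit (0.0258). The cause was not tested.

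Over all genes, 1901 passed with surface proteins (3163 with no limit on the fold change), 461 with heat-killed MJ2 (267 without a filter, 799 at an unadjusted p, 189 to 334 with each library left out) and 1098 between the treatments (1949 with no limit on the fold change, 342 to 1167 with each library left out). Counts in some related lists also moved: of other family GTPases 0 to 3 and of the interferon regulators 0 to 7 passed with heat-killed MJ2. With surface proteins these counts ran from 0 to 6 and from 7 to 8.

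Replicate numbers are shared between groups, but the labels do not say that a number marks a shared culture or day. Deviations of same-numbered libraries correlated with r from 0.018 to 0.11, and in 18 of 18 cases a library correlated best with its own number in another group, a hint from the data, not the design. With the number as a replicate block, 289 genes and 1 of the 10 (Gbp7) passed with heat-killed MJ2, 1813 genes and 2 of the 10 with surface proteins, where Igtp had an adjusted p of 0.056, and 980 genes and 3 of the 10 between the treatments. Depth limits Gbp2, Gbp5, Gbp9 and Iigp1, which sat at a few reads.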
